A study of Bactrocera dorsalis with 16 samples.

Results

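Transcript levels at day 13 of adult life were compared with those at day 9 in the fat body of female Bactrocera dorsalis, the oriental fruit fly. Of the 13759 genes in the deposited table, 8311 had a mean of at least 1 FPKM (fragments per kilobase of transcript, scaled to the number of mapped fragments) in the fat body at day 9 or day 13, and these are the genes described. Among them, 428 genes were kept apart because both ovary libraries of day 9 were at least 10 times the mean of the 4 fat body libraries, which leaves 7883. At that limit, heterogeneous nuclear ribonucleoprotein L (MSTRG.2077) was just inside, at 10.01 times, and the homolog of timeless (MSTRG.10480) was just outside, at 9.997 times. The study sampled ovary and fat body at days 1, 5, 9 and 13, with 2 libraries per tissue and age and 16 in all. The 4 libraries compared here are fat body day 9 replicates 1 and 2 and fat body day 13 replicates 1 and 2, and the same-aged ovary libraries serve as a second tissue. All flies were laboratory-reared females kept on an artificial diet of yeast extract and sugar under a fixed light cycle, with no other treatment in the labels. The labels give no strain, genotype or mating state, and do not say how many flies each library holds. The series' design text calls the replicates biological; whether they came from separate rearings is not stated, so that p-values measure the spread between these samples.

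The insect fat body combines the storage role of adipose tissue with the secretory and metabolic roles of a liver. In adult females it makes vitellogenins, the yolk precursors that pass through the blood to the growing eggs, and it makes the antimicrobial peptides of the humoral immune response. It lies against the body wall, and the sampled tissue can also hold epidermis, muscle, oenocytes, tracheae and blood cells, so markers of those cells are given beside the results. In bulk tissue, fewer cells of a type and less RNA per cell cannot be told apart.

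The fat body label was checked against its markers. Apolipophorins (MSTRG.506), the protein part of the blood's lipid carrier, stood at 1250 and 1439 FPKM in the fat body at day 9 and at 33.8 and 34.2 FPKM in the ovary of that day. The summed level of 12 fat body markers was 2417 and 2781 FPKM at day 9 and 2955 and 3353 FPKM at day 13, against 386.4 to 491.1 FPKM in the 4 ovary libraries of these days. In each pair of values, here and below, replicate 1 comes first. The 2 libraries of an age correlated at r = 0.954 at day 9 and 0.949 at day 13, over genes on the log2(FPKM + 1) scale; genes are not independent replicates. Total read counts are not given in the sources used here. The most common ratio of low values puts the other 3 libraries at 0.923 to 1.01 times the depth of day 9 replicate 1. This is a rough estimate, since 20 to 35 of the 963 to 991 genes used had that ratio.

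Between day 9 and day 13 more genes fell than rose in the fat body. Some antimicrobial peptides, cuticle proteins and muscle proteins were among the genes that fell. Some enzymes of tyrosine and other amino acid breakdown, peroxiredoxins, transferrin and a vitellogenin were among those that rose. Of the 7883 genes, 176 rose and 453 fell at an adjusted p under 0.05, or 2.23% and 5.75% of them, and 7.98% in either direction. Over all 10213 genes tested the shares were 1.73% and 5.42%, 7.16% together. Both day 13 libraries were below both day 9 libraries for 2369 of the 7883 genes, or 30.1%, and above both for 1553, or 19.7%. The median log2 fold change of the 7883 genes was -0.06, and a change of at least 2-fold on the FPKM + 1 scale was met by 88 of the risen and 288 of the fallen genes. The share of risen genes depended on scaling. With median-of-ratios scaling 372 rose and 424 fell, and with quantile normalization 274 rose and 272 fell, while the median over all genes tested moved from -0.07 to 0.00 and 0.06. The counts also rest on the spread pooled over all 8 groups. With only the 2 groups compared in the fit 1 gene rose and none fell (1789 of the 7883 genes had an unadjusted p under 0.05 with all groups in the fit), with the 8 fat body libraries 65 rose and 158 fell, and leaving out day 13 replicate 1 left 89 and 259, day 9 replicate 1 left 106 and 284, and day 9 replicate 2 left 125 and 278.

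**Figure D1:**
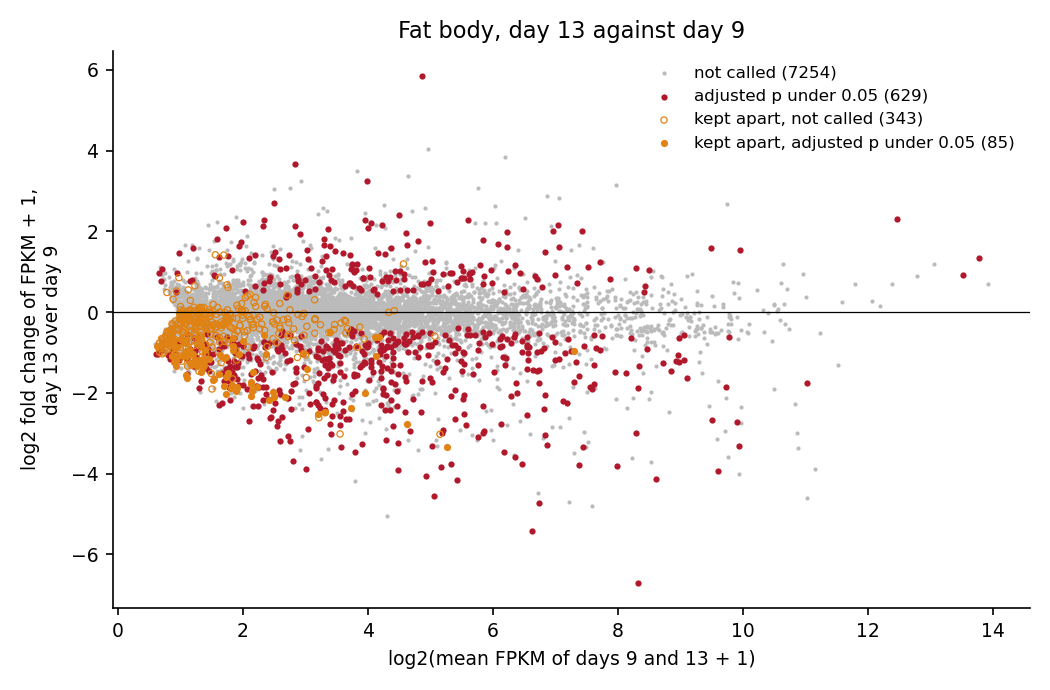
Each point is 1 of the 8311 genes, with the log2 of its mean FPKM + 1 over days 9 and 13 on the horizontal axis and its log2 fold change of day 13 over day 9 on the vertical axis. Filled red points are the 629 called genes and orange points are the 428 genes kept apart, whose 85 called members all lie below 0.

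With each product name taken once, the named genes with the largest falls were a cecropin, 2 glycine-rich structural proteins, a serine protease, a lipocalin and several cuticle proteins. The largest rises belonged, in order, to an enzyme of tyrosine breakdown, a SOCS box protein, a perlucin-like gene, a peroxiredoxin and a methyltransferase. Of 12 such rises 8, and of 12 such falls 9, remained called with each of 8 libraries left out in turn. The 7 that were lost at least once are SPRY domain-containing SOCS box protein 3, a perlucin-like gene, alpha-tocopherol transfer protein, a senecionine N-oxygenase-like gene, adult cuticle protein 1, proline-rich protein 4 and vacuolar protein sorting-associated protein 33B. The first of these (MSTRG.4356) was lost whichever library was left out, at adjusted p up to 0.178. The perlucin-like gene and the senecionine N-oxygenase-like gene were lost without day 9 replicate 1 or either day 13 library (up to 0.11 and 0.0912), adult cuticle protein 1 and proline-rich protein 4 without either day 9 library (up to 0.0852 and 0.122), protein 33B without any 1 of the 4 fat body libraries (up to 0.146), and alpha-tocopherol transfer protein without those or ovary day 13 replicate 2 (up to 0.153).

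**Figure D2:**
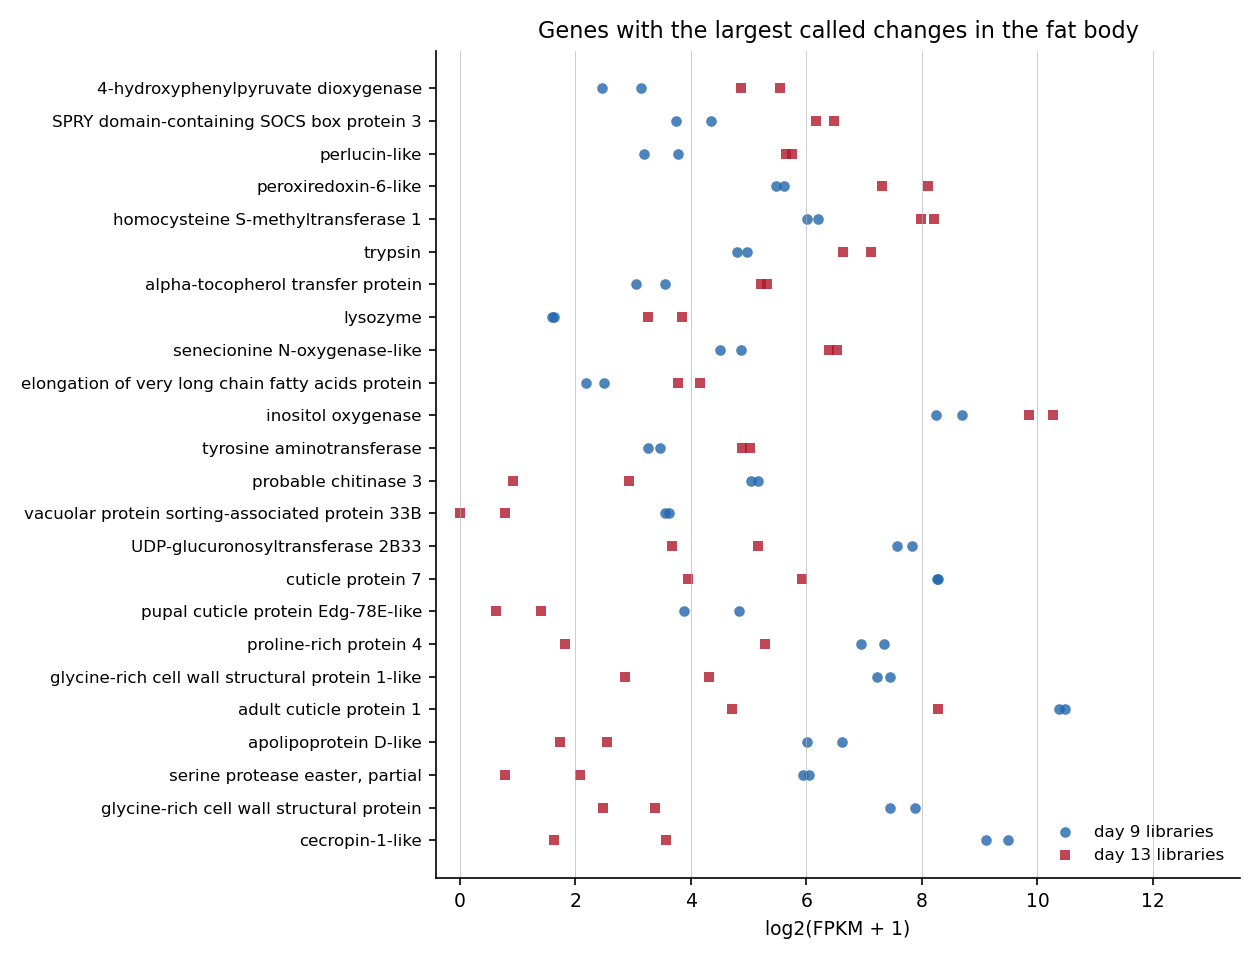
The log2 of FPKM + 1 is shown for the 12 largest called rises and the 12 largest called falls of named genes at 10 FPKM or more, each product name taken once, with 1 point per library. Day 9 libraries (circles) and day 13 libraries (squares) do not overlap in any row, as the choice of genes required. The 2 day 13 libraries lie far apart for adult cuticle protein 1, at 308.9 and 25.2 FPKM.

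Cecropins, small peptides that break bacterial membranes, were high at day 9 and low at day 13. One cecropin-1-like gene (MSTRG.10389) was at 714.7 and 550.6 FPKM at day 9 and at 2.09 and 10.9 FPKM at day 13. Both day 13 libraries were below the means of day 1 (31.3 ± 26.2 FPKM, SD, n = 2) and day 5 (38.2 FPKM), so day 9 was the high point of the 4 ages. The log2 fold change was -6.70 ± 0.94 (SE), with an adjusted p of 0.00331. A second cecropin-1-like gene (MSTRG.10386) was at 133.3 and 247.2 FPKM at day 9 and at 1.47 and 6.39 FPKM at day 13, with an adjusted p of 0.00839. The third, MSTRG.10390, was at 39.2 and 41.6 FPKM and then at 0.676 and 3.48 FPKM (-3.92 ± 0.60, adjusted p = 0.0048). The call of MSTRG.10386 was lost without day 9 replicate 2 (adjusted p = 0.0508) or day 13 replicate 1 (0.0576).

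Attacins and diptericins, other antibacterial peptides, did not pass the test, and their day 13 libraries differed widely. Attacin-B-like MSTRG.7668 was at 3076 and 3851 FPKM at day 9 and at 13.8 and 1337 FPKM at day 13. Its log2 fold change was -4.61 ± 1.76, with an adjusted p of 0.164. The other attacin-B-like gene (MSTRG.1100) was at 1455 and 1711 FPKM and then at 12.2 and 724.1 FPKM. Day 13 replicate 1 was lower than day 9 by a wide margin for both attacins, and replicate 2 lay between. A diptericin-like gene (MSTRG.9420) was at 683.0 and 1311 FPKM at day 9 and at 33.2 and 1373 FPKM at day 13, so that replicate 2 of day 13 was as high as day 9.

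Peptidoglycan-recognition proteins bind bacterial cell wall, and the SB1 and LB forms of Drosophila cleave it. A peptidoglycan-recognition protein SB1-like gene (MSTRG.10314) fell from 204.5 and 243.2 FPKM to 19.6 and 107.0 FPKM (-2.25 ± 0.57, adjusted p = 0.0401). A more abundant one, MSTRG.1116, was at 2694 and 3032 FPKM at day 9 and at 266.3 and 1285 FPKM at day 13, with an adjusted p of 0.0572. An LB-like gene (MSTRG.10313) fell from 120.7 and 122.5 FPKM to 19.0 and 65.7 FPKM, with an adjusted p of 0.0364. Another LB-like gene, MSTRG.10316, was at 175.4 and 243.1 FPKM at day 9 and at 0.626 and 307.6 FPKM at day 13, which spans the day 9 values. The NF-kappa-B inhibitor cactus (MSTRG.8385), which holds back Toll signalling and is itself a target of it in Drosophila, fell from 71.0 and 52.3 FPKM to 24.4 and 27.6 FPKM (adjusted p = 0.00832). Its 2 day 13 libraries were close to each other. The calls of MSTRG.10314 and MSTRG.10313 were lost with any 1 of 7 libraries left out, all but day 13 replicate 2, at adjusted p up to 0.153 and 0.124. Cactus lost its call without day 9 replicate 1 (adjusted p = 0.0532) or day 13 replicate 1 (0.0526).

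Over the whole immune list, 36 of 44 genes reached 1 FPKM; 9 fell, 2 rose and 25 did not pass the test. Those 9 are 25.0% of the list, beside 5.75% of all 7883 genes, and the list's median log2 fold change was -0.31. The risen genes were a lysozyme (MSTRG.5389), which digests bacterial cell wall, and a scavenger receptor of class B (MSTRG.2169), at 30.1 and 21.8 and then 53.4 and 49.4 FPKM, whose call was lost whichever library was left out (adjusted p up to 0.211). The lysozyme was at 2.09 and 2.04 FPKM at day 9 and at 8.60 and 13.4 FPKM at day 13 (1.94 ± 0.27, adjusted p = 0.00318). Levels of the list summed to 10921 and 13093 FPKM at day 9 and to 1889 and 6851 FPKM at day 13. Without day 13 replicate 1 the list had 3 fallen members and without replicate 2 it had 11; without either day 9 library it had 4, and with quantile normalization 5.

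Serine proteases and serpins were also lower as a list. Some members of these families start and limit the Toll and melanization cascades in insect blood. The list was made by name and also holds trypsins, among them the trypsin delta/gamma-like gene MSTRG.1244 of the gut list. Of 66 genes 12 fell and 2 rose, or 18.2% and 3.03%, beside 5.75% and 2.23% of all 7883 genes. The list's median log2 fold change was -0.62. The median was -0.31 without day 9 replicate 2 and -0.29 without day 13 replicate 1, and 6 genes fell in the fit to the 8 fat body libraries. Serine protease easter (MSTRG.10385), named after the Drosophila protease that activates the Toll ligand in the egg, was at 65.3 and 60.5 FPKM at day 9 and at 0.734 and 3.24 FPKM at day 13. Its log2 fold change was -4.56 ± 0.52, with an adjusted p of 0.00125, and it stood at 1.81 ± 2.09 FPKM (SD, n = 2) at day 1. A venom serine protease Bi-VSP-like gene (MSTRG.10124) fell from 5.76 and 5.47 FPKM to 0.959 and 0.604 FPKM (-1.90 ± 0.15, adjusted p = 0.000161). Among the serpins, which trap proteases, alaserpin-like MSTRG.3359 fell from 167.2 and 182.9 FPKM to 65.9 and 87.6 FPKM (adjusted p = 0.00186). Antichymotrypsin-2-like MSTRG.4775 fell from 1540 and 1083 FPKM to 235.4 and 536.9 FPKM (adjusted p = 0.0139). The groups did not overlap for these 4 genes, as for every called gene, so this adds nothing to the calls. The last of them lost its call without day 9 replicate 1 (adjusted p = 0.0859) or day 13 replicate 1 (0.0733). A trypsin (MSTRG.5194) went the other way, from 30.3 and 27.0 FPKM to 98.4 and 138.6 FPKM (1.99 ± 0.27, adjusted p = 0.00276).

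Structural proteins of the chitin cuticle, which epidermal cells secrete, had the highest share of fallen members of the lists with at least 5 genes. Of 79 cuticle genes 29 reached 1 FPKM, and of these 13 fell, 1 rose and 15 did not pass the test. The share that fell was 44.8%, beside 5.75% of all 7883 genes. The median log2 fold change was -1.76, beside -0.06 for all 7883 genes. Larval cuticle protein A3A (MSTRG.10119) was at 11.8 and 7.88 FPKM at day 9 and at 0.0842 and 0.261 FPKM at day 13 (-3.19 ± 0.25, adjusted p = 0.000136). Pupal cuticle protein Edg-78E-like (MSTRG.6707) went from 27.5 and 13.7 FPKM to 1.66 and 0.552 FPKM, with an adjusted p of 0.000377. Endocuticle structural glycoprotein SgAbd-2 (MSTRG.887) went from 22.3 and 16.7 FPKM to 1.85 and 2.02 FPKM, with an adjusted p of 0.00528.

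For 2 abundant cuticle genes the mean was lower at each later age. Cuticle protein 7 (MSTRG.3009) averaged 4768 ± 402 FPKM at day 1 and 2704 FPKM at day 5 before it reached 306.6 and 311.0 FPKM at day 9 and 59.9 and 14.5 FPKM at day 13. Adult cuticle protein 1 (MSTRG.9932) averaged 5529 ± 1080 FPKM at day 1 and 3141 FPKM at day 5, and went from 1319 and 1428 FPKM at day 9 to 308.9 and 25.2 FPKM at day 13 (-3.93 ± 0.85, adjusted p = 0.0211). Over the list, 20 of 29 genes were higher in replicate 1 than in replicate 2 of day 13. Probable chitinase 3 (MSTRG.10092), whose family breaks down chitin, fell from 34.9 and 32.0 FPKM to 6.63 and 0.900 FPKM. Glycine-rich cell wall structural protein (MSTRG.2134), a name borrowed from plants, fell from 233.6 and 173.8 FPKM to 9.41 and 4.57 FPKM (-4.73 ± 0.43, adjusted p = 0.000282). Leaving out day 9 replicate 1 or 2 left 8 and 9 fallen cuticle genes, and the fit to the 8 fat body libraries left 8.

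Contractile proteins were abundant in all 4 libraries and lower at day 13. The 35 muscle genes summed to 17360 and 14668 FPKM at day 9 and to 8127 and 6915 FPKM at day 13, against 18924 and 18933 FPKM at day 5 and 7043 and 7629 FPKM at day 1. Of the 25 that reached 1 FPKM 8 fell and none rose, or 32.0% fallen, beside 5.75% of all 7883 genes. Of the 25, 20 were lower in both day 13 libraries than in either day 9 library, beside 2369 of all 7883 genes. Of the 35, 5 were listed at 0 in all 4. Actin-3, a muscle-specific actin (MSTRG.8885), was at 3469 and 2934 FPKM at day 9 and at 1016 and 880.5 FPKM at day 13 (-1.75 ± 0.31, adjusted p = 0.00834). Troponin I-b1 (MSTRG.5041), a calcium switch of the thin filament, fell from 632.9 and 551.9 FPKM to 267.6 and 227.8 FPKM (-1.26 ± 0.19, adjusted p = 0.00438). Myosin light chain alkali (MSTRG.2002) fell from 713.0 and 704.1 FPKM to 328.1 and 274.2 FPKM (adjusted p = 0.00697). The same 3 genes fell between these days in the ovary too, at lower levels, by -1.33 ± 0.31, -1.26 ± 0.19 and -0.96 ± 0.21 on the log2 scale. None of the 25 genes passed the test of a difference between the tissues. Without day 9 replicate 1 the adjusted p of actin-3 was 0.0512. With quantile normalization 2 muscle genes fell, and with 1 fat body library left out 3 to 5.

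Markers of other cells gave smaller counts. Over all 7883 genes 5.75% fell and 2.23% rose. The fallen share was 14.6% of the gut list, 22.2% of the hemocyte list and 17.4% of the oenocyte list, of which 8.7% rose. In the gut list 7 of 48 genes fell and none rose, and the list summed to 3360 and 3024 FPKM at day 9 and to 594.8 and 1941 FPKM at day 13. The ovary also held transcripts of this list, at 4338 to 5987 FPKM in the 4 libraries of these days. Mucins, the slippery glycoproteins of barrier surfaces, made up 5 of the fallen gut genes. Aminopeptidase N-like MSTRG.1559, of a family of digestive peptidases, fell from 27.4 and 29.9 FPKM to 7.84 and 6.37 FPKM (-1.88 ± 0.17, adjusted p = 0.00031). Without day 9 replicate 2 the count for the gut was 3. Of 9 hemocyte genes 2 fell, both named collagen alpha-1(IV) chain, a basement membrane protein that fat body cells make as well. One of them (MSTRG.4168) went from 145.6 and 144.7 FPKM to 83.1 and 73.2 FPKM (adjusted p = 0.00784), and 1 of the pair fell without day 9 replicate 1 or day 13 replicate 2. Of 23 oenocyte genes 4 fell and 2 rose; without replicate 1 of day 9 or of day 13 none fell, and 1 fell without replicate 2 of either day. Of 14 neuronal genes 1 rose, synaptotagmin-14, which was listed at 0 in both day 9 libraries and lost its call with any library but day 13 replicate 2 left out (adjusted p up to 0.145). The 17 hemocyte genes summed to 547.5 and 532.1 FPKM at day 9 and 403.2 and 396.3 FPKM at day 13, the 29 oenocyte genes to 1802 and 1975 and then 1792 and 1876 FPKM, and the 87 neuronal genes to 165.0 and 179.0 and then 160.4 and 147.0 FPKM. Of 12 germline, 14 cell cycle, 2 eggshell and 2 spermatheca genes not kept apart, none passed the test, with 2, 1, 1 and 0 at an unadjusted p under 0.05. The part that the amount of muscle, gut or epidermis in the samples plays in the falls of other genes was not tested.

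**Figure D3:**
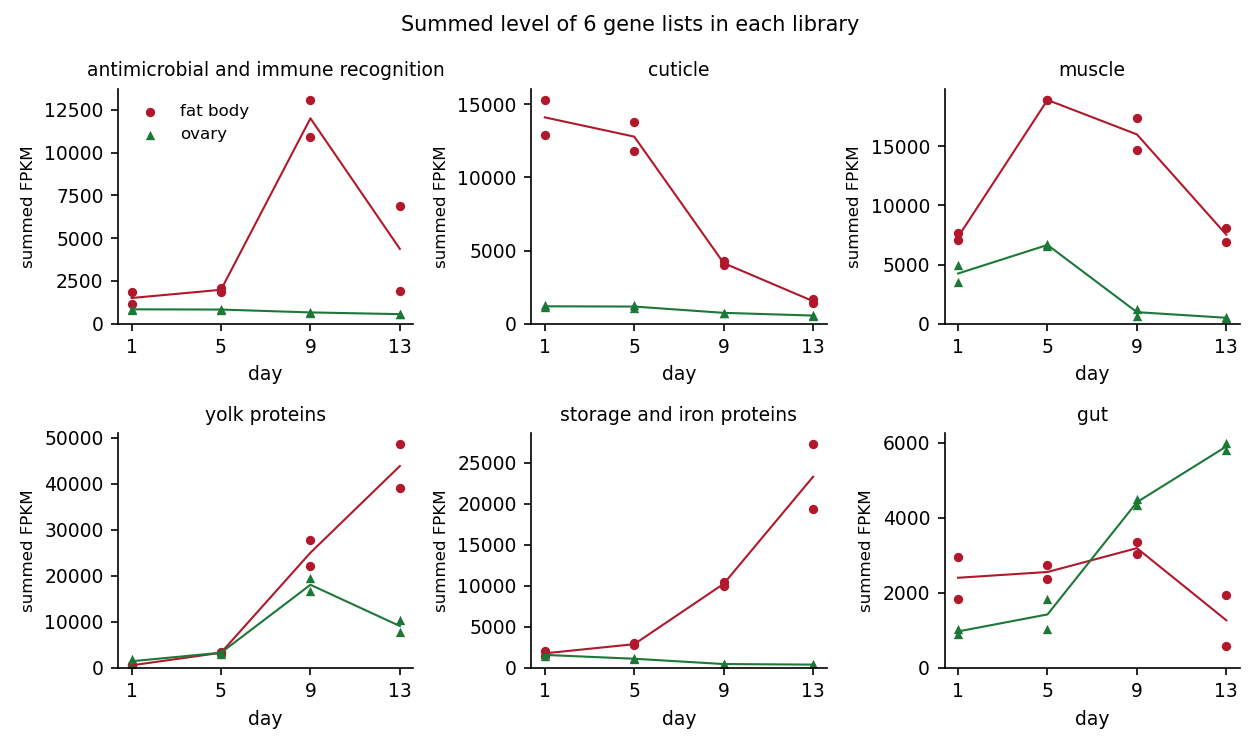
Summed FPKM of 6 gene lists is plotted against age in days, with 1 point per library, circles for fat body and triangles for ovary, and lines through the means. The immune list peaks at day 9 and its 2 day 13 fat body libraries lie apart, at 1889 and 6851 FPKM; cuticle falls from day 1, and yolk and storage proteins are highest at day 13 in the fat body.

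Vitellogenin transcripts were among the most abundant in the fat body at both ages. By mean FPKM, vitellogenin-1-like precursor and vitellogenin-2-like ranked 1 and 2 at day 9. At day 13 they ranked 2 and 3, behind transferrin. Vitellogenin-2-like (MSTRG.3414) was at 8700 and 7595 FPKM at day 9 and at 15518 and 15012 FPKM at day 13. Both day 13 libraries were above both day 9 libraries, as for every gene that rose. The log2 fold change was 0.91 ± 0.15, with an adjusted p of 0.0068. With quantile normalization that value was -0.32, no longer called. Vitellogenin-1-like precursor (MSTRG.3415) was at 14190 and 9486 FPKM at day 9 and at 21513 and 16691 FPKM at day 13, or 3.67% and 2.34% and then 5.67% and 4.29% of the summed FPKM of the library. Its log2 fold change was 0.71 ± 0.23, and the adjusted p of 0.0975 missed the threshold. Vitellogenin-1-like MSTRG.10714 was at 4737 and 4959 FPKM and then at 11289 and 7205 FPKM (adjusted p = 0.16).

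The other 6 vitellogenin-like genes were far lower and did not pass the test. MSTRG.3980 and MSTRG.3974 averaged 103.1 ± 64.5 and 43.3 ± 23.7 FPKM (SD, n = 2) at day 9 and 111.1 ± 19.3 and 58.8 ± 18.8 FPKM at day 13. MSTRG.3977 averaged 12.2 ± 1.31 and 12.0 ± 1.07 FPKM, MSTRG.3978 4.62 ± 0.17 and 8.85 ± 6.15 FPKM, and MSTRG.3979 3.37 ± 4.77 and 1.20 ± 1.12 FPKM. MSTRG.10715 was below 0.001 FPKM in both day 9 libraries and in day 13 replicate 1, and at 34.9 FPKM in day 13 replicate 2. These genes carry near-identical names, and reads of close copies could have been split between them. The 9 genes summed to 27859 and 22142 FPKM at day 9 and 48545 and 39102 FPKM at day 13. In the ovary the sum went from 19449 and 16621 FPKM to 10310 and 7847 FPKM.

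Transferrin (MSTRG.6582), the iron carrier of insect blood, was at 7935 and 7760 FPKM at day 9 and at 16617 and 23784 FPKM at day 13. Its day 13 mean of 20201 ± 5070 FPKM (SD, n = 2) was the highest of any gene in the fat body at that age, and the log2 fold change was 1.34 ± 0.26 (adjusted p = 0.0116). The call was lost without day 9 replicate 1, day 9 replicate 2 or day 13 replicate 2, at adjusted p up to 0.0746, and with quantile normalization (adjusted p = 0.827). Larval serum protein 2 (MSTRG.5581), a hexamerin that larvae store as an amino acid reserve, rose from 0.0672 and 0.00671 FPKM to 1.52 and 2.29 FPKM (1.47 ± 0.13, adjusted p = 0.00028), which is a low level. Larval serum protein 1 beta chain-like was at 0.485 and 0.467 FPKM and then at 2.11 and 0.796 FPKM, with an adjusted p of 0.168. Soma ferritin, which stores iron, was at 575.9 and 1002 FPKM at day 9 and at 689.2 and 995.4 FPKM at day 13 (adjusted p = 0.979). The risen share of the storage and iron list was 22.2%, beside 2.23% of all 7883 genes. Of the 9 storage and iron genes 2 rose, transferrin and larval serum protein 2, and none fell; without either day 9 library larval serum protein 2 alone rose. Apolipophorins (MSTRG.506) were at 1784 and 2213 FPKM at day 13, with an adjusted p of 0.216 against day 9. Of 14 genes for lipid transport and droplets, none passed the test, with 5 at an unadjusted p under 0.05, and with median-of-ratios scaling 3 rose; 1 of 10 fat body markers rose, larval serum protein 2.

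The first and the second enzyme of tyrosine breakdown rose together. Tyrosine aminotransferase (MSTRG.1106), the first, was at 8.62 and 10.1 FPKM at day 9 and at 31.6 and 28.7 FPKM at day 13. 4-Hydroxyphenylpyruvate dioxygenase (MSTRG.4833), the second, was at 4.54 and 7.85 FPKM and then at 28.4 and 45.9 FPKM. All day 13 values of both were above all day 9 values, as for every gene that rose. Their log2 fold changes were 1.59 ± 0.18 and 2.41 ± 0.28, with adjusted p of 0.00133 and 0.00137. At day 5 the second averaged 3.28 FPKM, and at day 1 it averaged 8.13 ± 1.97 FPKM, so that day 13 was the highest of the 4 ages. The first averaged 16.3 FPKM at day 1 and 24.5 FPKM at day 5, so that its day 9 level was the lowest of the 4 ages. Ornithine aminotransferase (MSTRG.5227), which links arginine and proline, rose from 110.7 and 135.9 FPKM to 270.4 and 313.4 FPKM (1.24 ± 0.18, adjusted p = 0.00358). Aminomethyltransferase (MSTRG.306), of the glycine cleavage system, rose from 29.1 and 36.8 FPKM to 60.3 and 73.1 FPKM (adjusted p = 0.00922). S-adenosylmethionine decarboxylase (MSTRG.1878), which feeds polyamine synthesis, rose from 13.7 and 16.2 FPKM to 27.0 and 26.6 FPKM (adjusted p = 0.00696). The 47 genes of the amino acid and purine breakdown list summed to 2301 and 2420 FPKM at day 9 and to 2432 and 2484 FPKM at day 13. Of the 42 that reached 1 FPKM, 6 rose and 1 fell, and the median log2 fold change was 0.08. The risen share was 14.3%, beside 2.23% of all 7883 genes. The one that fell was S-adenosylmethionine synthase (MSTRG.9576), from 386.8 and 328.1 FPKM to 230.6 and 228.7 FPKM (adjusted p = 0.015). Outside the list, homocysteine S-methyltransferase 1 (MSTRG.3516), which remakes methionine, rose from 72.2 and 63.6 FPKM to 295.3 and 253.2 FPKM (2.0 ± 0.29, adjusted p = 0.0037). Without day 9 replicate 1 the list had 4 risen members. Aminomethyltransferase lost its call without day 9 replicate 1 or day 13 replicate 2 (adjusted p up to 0.0583), and the synthase without day 9 replicate 1 or either day 13 library (up to 0.0899).

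Peroxiredoxins, which reduce peroxides, were the 3 risen members among 14 antioxidant genes, and no member fell. The risen share was 21.4%, beside 2.23% of all 7883 genes. Peroxiredoxin-6-like MSTRG.8360 was at 48.2 and 43.4 FPKM at day 9 and at 275.3 and 157.9 FPKM at day 13 (2.16 ± 0.27, adjusted p = 0.0019). MSTRG.8359, of the same name, was at 43.5 and 50.9 FPKM and then at 254.7 and 144.7 FPKM (2.01 ± 0.29, adjusted p = 0.00358). The third, MSTRG.2292, went from 3.71 and 5.34 FPKM to 11.5 and 15.6 FPKM (adjusted p = 0.0138). The first and second of these genes had close levels in all 4 libraries, with replicate 1 the higher for both at day 13; genes of 1 product name may share reads. Both had been at a mean of 103.5 and 120.4 FPKM at day 1, and at 43.0 and 44.8 FPKM at day 5. Of 28 heat shock genes 1 rose, the mitochondrial 60 kDa chaperonin (MSTRG.2760), from 120.3 and 124.2 FPKM to 217.9 and 185.3 FPKM (adjusted p = 0.0234). Its call was lost without either day 9 library or day 13 replicate 1 (adjusted p up to 0.146), and that of MSTRG.2292 without day 9 replicate 1 or day 13 replicate 2 (up to 0.0867).

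Detoxification genes moved both ways, with 4 of 85 risen and 4 fallen, or 4.71% each, beside 2.23% and 5.75% of all genes. The risen genes numbered 1 without day 9 replicate 1 and 2 without day 13 replicate 1, and with median-of-ratios scaling 7 did. UDP-glucuronosyltransferase 2B33 (MSTRG.4934), of a family that attaches sugars to small molecules, fell from 189.6 and 225.5 FPKM to 11.8 and 34.8 FPKM (-3.28 ± 0.41, adjusted p = 0.00189). It had averaged 12.9 ± 2.43 FPKM at day 1 and 14.7 FPKM at day 5. Probable cytochrome P450 6a23 (MSTRG.7411) fell from 3.19 and 10.9 FPKM to 0.385 and 0.450 FPKM (adjusted p = 0.0064). Probable cytochrome P450 311a1 (MSTRG.10611) rose from 0.895 and 0.783 FPKM to 3.47 and 6.23 FPKM (1.63 ± 0.21, adjusted p = 0.00193).

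Some enzymes that burn fatty acids fell by day 13. Of 35 lipid breakdown genes 5 fell and 1 rose, or 14.3% and 2.86%, beside 5.75% and 2.23% of all 7883 genes. The list's median log2 fold change was -0.29. The 5 are the mitochondrial 3-ketoacyl-CoA thiolase and medium-chain acyl-CoA dehydrogenase, 2 peroxisomal acyl-CoA oxidases and carnitine O-palmitoyltransferase 1, the gate for fatty acids into the mitochondrion. Thiolase MSTRG.4034 was at 275.1 and 275.3 FPKM at day 9 and at 149.3 and 139.2 FPKM at day 13 (-0.93 ± 0.16, adjusted p = 0.00775). The dehydrogenase, MSTRG.10007, was at 431.7 and 486.9 FPKM and then at 244.4 and 238.4 FPKM (-0.92 ± 0.19, adjusted p = 0.0144). Carnitine O-palmitoyltransferase 1 (MSTRG.8063) was at 96.2 and 97.3 FPKM and then at 66.1 and 59.8 FPKM (adjusted p = 0.0361). The libraries of each day were close to each other, and day 5 had been lower than day 9 for all 3, at means of 138.3, 194.5 and 48.9 FPKM. None of the 5 passed the test with quantile normalization, and without day 13 replicate 1 or day 9 replicate 2 a single one did. The risen gene was lipase member H-A (MSTRG.5513), from 21.3 and 23.8 FPKM to 37.5 and 37.9 FPKM (adjusted p = 0.0328). Its call and that of carnitine O-palmitoyltransferase 1 were lost without any 1 of the 4 fat body libraries (adjusted p up to 0.14 and 0.167), the latter also without either ovary library of day 13. The dehydrogenase lost its call without day 9 replicate 2 or either day 13 library (up to 0.0774).

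Of 37 genes for fatty acid and triglyceride synthesis 2 rose and 3 fell, or 5.41% and 8.11%, beside 2.23% and 5.75% of all genes. None fell without day 9 replicate 1 or day 13 replicate 2, 1 fell without either other fat body library, 1 rose without any 1 of the 4, and 6 rose with median-of-ratios scaling. Elongation of very long chain fatty acids protein AAEL008004 (MSTRG.9793) rose from 4.63 and 3.57 FPKM to 16.9 and 12.7 FPKM (1.63 ± 0.20, adjusted p = 0.00171), and had averaged 26.7 ± 1.42 FPKM at day 1. NADP-dependent malic enzyme (MSTRG.5659), a source of reducing power for lipid synthesis, fell from 42.8 and 29.2 FPKM to 21.5 and 16.6 FPKM (adjusted p = 0.0236), and the call was lost without day 9 replicate 1 or day 13 replicate 2 (up to 0.14).

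Sugar genes that fell were mostly trehalose transporters, the carriers of the main insect blood sugar. Of 44 genes 5 fell and none rose, or 11.4% fallen, beside 5.75% of all 7883 genes. The 5 are 4 named as facilitated trehalose transporters and glycogenin-1, which primes glycogen. The transporter MSTRG.4057 was at 158.3 and 143.4 FPKM at day 9 and at 45.6 and 65.4 FPKM at day 13 (-1.45 ± 0.23, adjusted p = 0.00553). MSTRG.7854 was at 57.5 and 46.8 FPKM and then at 25.8 and 19.7 FPKM (-1.17 ± 0.18, adjusted p = 0.00441). Glycogenin-1 (MSTRG.1144) went from 171.0 and 117.4 FPKM to 80.6 and 64.3 FPKM (adjusted p = 0.0215), and lost its call without day 9 replicate 1 or day 13 replicate 2 (up to 0.124). Inositol oxygenase (MSTRG.5913), which opens the ring of inositol on the way to glucuronate, rose from 302.4 and 411.7 FPKM to 1230 and 928.7 FPKM (1.60 ± 0.22, adjusted p = 0.00311).

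Of 38 oxidative phosphorylation genes 4 fell and none rose, or 10.5% fallen, beside 5.75% of all 7883 genes. Of the 38 genes, 31 were lower in both day 13 libraries than in either day 9 library, beside 2369 of all 7883 genes. The median log2 fold change was -0.42. The fallen genes numbered 1 without replicate 1 of either day and 2 without replicate 2 of either day. Succinate dehydrogenase iron-sulfur subunit MSTRG.7621 fell from 24.2 and 27.9 FPKM to 11 and 7.00 FPKM (-1.46 ± 0.24, adjusted p = 0.0064). Cytosolic ribosomal proteins had a median of -0.46, and 46 of 57 were lower in both day 13 libraries. The share that fell was 1.75%, below that of all 7883 genes. The 1 gene that passed the test was 60S ribosomal protein L3 (MSTRG.8661). It went from 1003 and 1127 FPKM to 722.4 and 657.4 FPKM (-0.62 ± 0.16, adjusted p = 0.0397), and it lost the call without any 1 of the 4 fat body libraries or either ovary library of day 9 (adjusted p up to 0.18), and with either other scaling. Without day 9 replicate 2 the median of the ribosomal proteins was -0.26. With quantile normalization the medians were -0.14 for oxidative phosphorylation and -0.09 for ribosomal proteins. None of 45 secretory pathway genes passed the test, with 3 at an unadjusted p under 0.05; 1 rose with median-of-ratios scaling.

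Of 10 juvenile hormone genes 2 fell, both named protein takeout-like, of a family that binds hydrophobic ligands in insects. One, MSTRG.117, went from 16.1 and 18.6 FPKM to 2.48 and 1.05 FPKM (-2.78 ± 0.52, adjusted p = 0.0111), and lost its call without replicate 2 of day 9 or of day 13 (up to 0.0671). Neither takeout-like gene was called without replicate 2 of either day. None of 5 ecdysone response genes and none of 11 insulin and TOR genes passed the test, with 1 at an unadjusted p under 0.05 in each list. Odorant-binding proteins carry small hydrophobic molecules and are not limited to sense organs. General odorant-binding protein 99a-like MSTRG.9806 was among the most abundant transcripts of the tissue, at 7361 and 2973 FPKM at day 9 and 16666 and 6880 FPKM at day 13, and it did not pass the test (1.19 ± 0.65, adjusted p = 0.357). In both ages replicate 1 was more than 2 times replicate 2. Of 14 genes of the chemosensory list 1 fell, or 7.14%, which is near the 5.75% of all 7883 genes. It was general odorant-binding protein 99a (MSTRG.10949), from 15.9 and 24.3 FPKM to 7.52 and 2.03 FPKM (-2.02 ± 0.39, adjusted p = 0.0128). The call was lost without day 9 replicate 2, at a log2 fold change of -1.73.

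**Figure D4:**
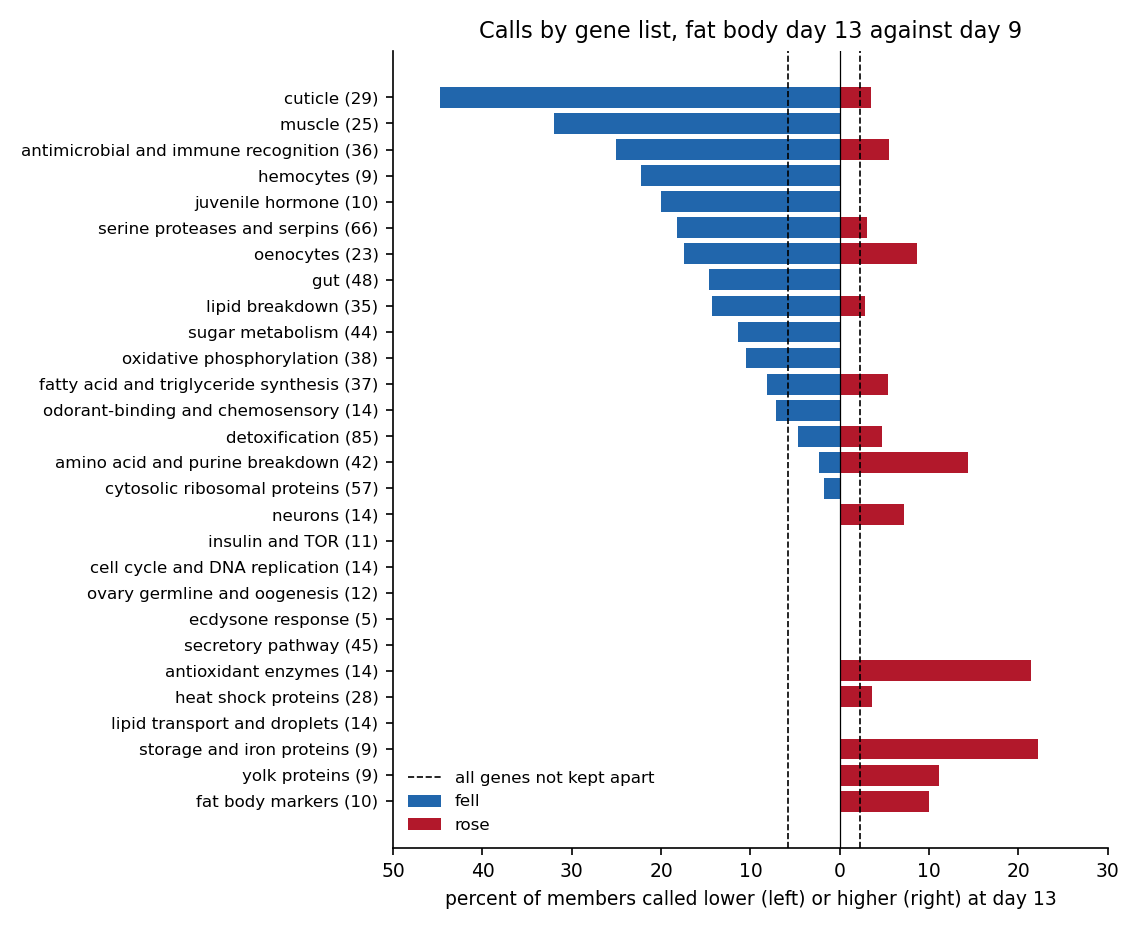
For each gene list with at least 5 genes not kept apart, the bars give the percent of its genes that fell (left) and rose (right) at an adjusted p under 0.05, with the number of genes in parentheses. Dashed lines mark 5.75% and 2.23%, the shares over the 7883 genes. Cuticle, muscle and immune genes have the longest bars to the left.

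Of the called genes not kept apart, 74 of 176 risen and 175 of 453 fallen ones had no informative name. Among all 8311 genes described, 5220 had an informative name. The gene MSTRG.5580 was at 2179 and 1540 FPKM at day 9 and at 11512 and 7242 FPKM at day 13, which made it one of the 5 most abundant transcripts at that age (2.32 ± 0.51, adjusted p = 0.0234). The call was lost without either day 9 library or without day 13 replicate 1 (adjusted p up to 0.139). MSTRG.10862 was listed at 0 in both day 9 libraries and was at 58.2 and 54.9 FPKM at day 13, and at a mean of 61.5 FPKM at day 5; its call was lost whichever library was left out (adjusted p up to 0.13). MSTRG.85 fell from 58.2 and 55.2 FPKM to 3.16 and 1.87 FPKM (-4.06 ± 0.28, adjusted p = 0.000113). MSTRG.10876 was at 17 and 11.2 FPKM at day 9 and listed at 0 in both day 13 libraries and in all ovary libraries of these days.

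The step from day 9 to day 13 differed between the tissues for 562 of 10213 genes, or 5.5%, by a test of the difference itself. Of the genes called in the fat body and not kept apart, 75 of the 176 that rose and 167 of the 453 that fell were among them. Both comparisons use the same fat body libraries. The 2 tyrosine enzymes are examples: tyrosine aminotransferase was at 0.324 and 0.231 FPKM in the ovary at day 9 and at 0.142 and 0.347 FPKM at day 13, and the fat body step exceeded the ovary step by 1.63 ± 0.26 on the log2 scale (adjusted p = 0.00967). Vitellogenin-2-like went in opposite directions, falling in the ovary from 7484 and 6253 FPKM to 3653 and 3090 FPKM, a difference of 1.93 ± 0.21 between the steps (adjusted p = 0.00198). Apolipophorins also differed, with 33.8 and 34.2 FPKM and then 9.15 and 12.0 FPKM in the ovary (2.17 ± 0.34, adjusted p = 0.00964). Cactus was at 49.2 and 52.7 FPKM and then at 61.9 and 60.4 FPKM in the ovary, and the difference was -1.46 ± 0.30 (adjusted p = 0.0225). For peptidoglycan-recognition protein SB1-like MSTRG.1116 the ovary went from 24.0 and 40.6 FPKM to 3.31 and 6.54 FPKM, and the steps differed by 0.21 ± 0.89.

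The 428 genes with far higher levels in the ovary were lower in the fat body at day 13. Of these 85 fell and none rose, or 19.9% fallen, beside 5.75% of the 7883 other genes. A lower mean log2 level was found for 374, or 87.4%, beside 55.8% of the other genes. Their median log2 fold change was -0.45 in the fat body and 0.24 in the ovary, where 310 of them had a higher mean at day 13. The fallen genes numbered 31 without day 9 replicate 1, 51 without day 13 replicate 1, 36 without day 13 replicate 2, 41 in the fit to the 8 fat body libraries, and 128 with a pseudocount of 0.1. Levels of both fat body days and of the ovary at day 9 chose these genes. Vitelline membrane protein Vm26Aa-like (MSTRG.2241), an inner eggshell protein of follicle cells, was at 41.3 and 42.6 FPKM in the fat body at day 9 and at 5.01 and 5.64 FPKM at day 13 (-2.77 ± 0.38, adjusted p = 0.00276). In the ovary it was at 2180 and 1638 FPKM at day 9 and at 2263 and 2321 FPKM at day 13. G2/mitotic-specific cyclin-B (MSTRG.8707) fell in the fat body from 25.5 and 16.7 FPKM to 4.24 and 2.39 FPKM (adjusted p = 0.00696) and was at 796.2 to 1094 FPKM in the ovary. Skin secretory protein xP2-like (MSTRG.2533) fell from 79.9 and 58.4 FPKM to 5.36 and 6.30 FPKM, and juvenile hormone epoxide hydrolase 1-like (MSTRG.9415) from 25.2 and 22.6 FPKM to 4.56 and 5.93 FPKM.

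Germline genes were among the 85. Oskar (MSTRG.1212), the organizer of germ plasm, fell from 2.67 and 1.94 FPKM to 0.446 and 0.420 FPKM (adjusted p = 0.00528), bicaudal C (MSTRG.10767) from 8.92 and 3.42 FPKM to 0.651 and 0.508 FPKM, and vasa (MSTRG.707), a germline RNA helicase, from 22.6 and 23.1 FPKM to 11.6 and 9.03 FPKM. Their ovary levels at day 9 were 105.9 and 100.3, 281.6 and 257.5, and 503.2 and 520.5 FPKM. Vasa lost its call without either day 9 library or day 13 replicate 2 (adjusted p up to 0.0948). Chorion protein S16 (MSTRG.3904), an outer eggshell protein, was at 133.7 FPKM in day 9 replicate 1 and between 0.907 and 1.92 FPKM in the other 3 libraries. As a share of the same-day ovary level, the median over kept-apart genes at 50 FPKM or more in that ovary was 4.6% and 3.6% in the day 9 libraries (175 genes) and 1.63% and 1.46% in the day 13 libraries (196 genes). The share was 5.11% to 6.67% in the 4 libraries of days 1 and 5, over 36 genes at day 1 and 52 at day 5. The gene sets differ by age. The limit that chose the genes used fat body levels of days 9 and 13 only, so the ages are not compared on equal terms. The share was the median over these same genes in each library, so its subtraction removes most of their fall by construction. The source of these transcripts was not tested. With that share of the same-day ovary level subtracted from every gene, 6 of the 428 genes were called lower and 13 higher. Among the 7883 other genes the same subtraction gave 214 risen and 404 fallen.

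**Figure D5:**
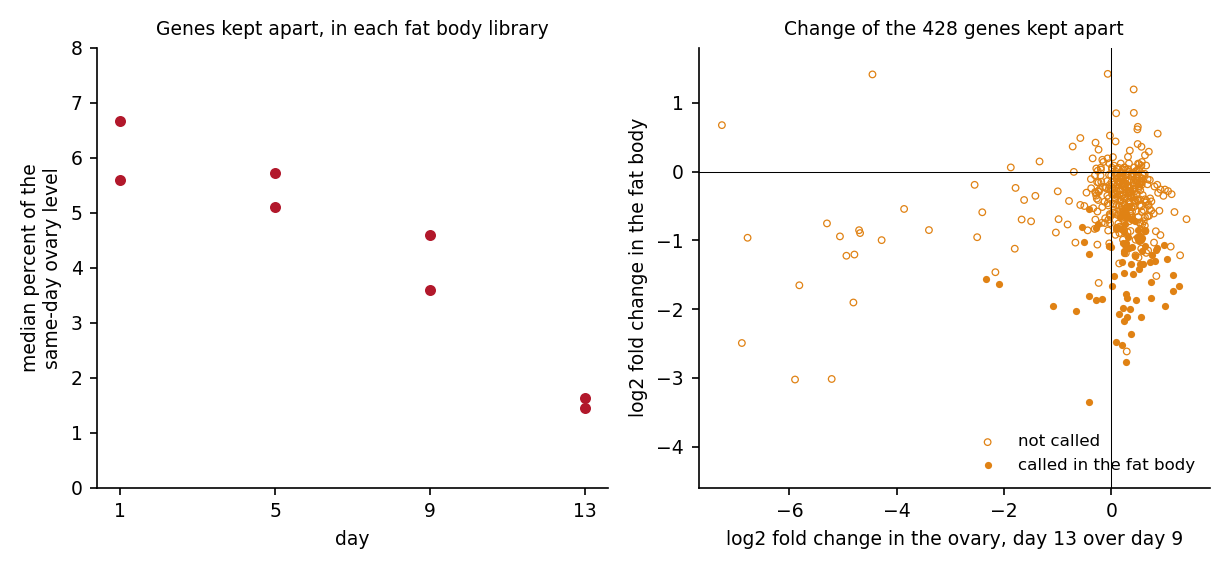
Left, the median percent of the same-day ovary level over the kept-apart genes at 50 FPKM or more in that ovary, for each fat body library by age. These are 36, 52, 175 and 196 genes at days 1, 5, 9 and 13, so the gene sets differ by age. The 2 libraries of day 13, at 1.63% and 1.46%, are the lowest. Right, the log2 fold change of day 13 over day 9 in the fat body against that in the ovary for the 428 genes kept apart, with the 85 called genes filled.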

How the data were processed

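RNA from ovary and fat body was sequenced in 16 libraries. The deposited values are FPKM per gene, 1 column per library, scaled by the authors to transcript length and library size. Per the submitters' processing notes, HISAT2 2.0, StringTie 1.3.0 and Bowtie 0.12.2 were used; the step of each is not given in the sources used here. The notes name a mouse build, mm8, so no genomic positions are printed. No sequences are printed.

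Values were analysed as log2(FPKM + 1) with limma 3.58.1 in R 4.3.3 (variance trend, robust moderation, 1 coefficient for each of 8 groups, 16 libraries). Testing covered the 10213 genes whose mean reached 1 FPKM in any group, and a Benjamini-Hochberg adjusted p under 0.05 over all of them is a call. "Rose" and "fell" mean called. Fold changes are on the log2(FPKM + 1) scale, which understates the change of low genes, with SE; levels are FPKM per library or mean ± SD. FPKM gives no counts, so no counting interval is given. Tables and plots were made with Python 3.11.15, pandas 2.3.3, numpy 2.4.6 and matplotlib 3.10.9. The fit was tested on simulated data for this comparison over 10213 genes: 47 of 100 genes changed by 1 on the log2 scale and 86 of 100 changed by 2 were called, as were 8 unchanged genes, and 2 changed genes had the wrong sign. The changed genes were drawn from the more abundant ones in the fat body at day 9. Each gene had the same normal spread in all 16 libraries. Recovery at low levels, or where the spread differs between groups, was not tested.

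Genes are named by the deposited product description and identifier. Rows with several product names (326) were kept out of gene lists. The 30 lists were made from patterns in product names, with wrong matches by name removed after the names were seen, and list counts leave out the genes kept apart. The members and lists were chosen with earlier results of these data known. Named genes are the 12 largest called changes in each direction (not kept apart, groups not overlapping, at least 10 FPKM, informative name, each product name taken once), up to 3 called members of each list by p, every vitellogenin, larval serum protein and ferritin, the 4 largest called changes in each direction among the genes kept apart, and 2 unnamed genes per direction. Not all of these are given. Genes chosen after their values were seen are both attacins, diptericin, apolipophorins, cactus, MSTRG.10386, MSTRG.10313, MSTRG.10314, MSTRG.10316, MSTRG.1116, MSTRG.2169, MSTRG.9806, MSTRG.5580, MSTRG.306, MSTRG.1878, MSTRG.9576, MSTRG.4775, MSTRG.1144, MSTRG.8063, MSTRG.5513, MSTRG.887, oskar, bicaudal C, vasa and chorion protein S16.

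Alternatives were another pseudocount (0.1), filters, 2 scalings, fits to fewer libraries, no trend or robust moderation, a replicate block, an added 2-fold threshold, an ovarian share subtracted, each of 8 libraries left out in turn, and other limits for keeping genes apart.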

Additional observations from a re-analysis of the deposited data

Results flagged for a closer look

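The day 9 to day 13 step differed between fat body and ovary, by a test of the difference itself in limma with Benjamini-Hochberg adjustment over 10213 genes, for 17 of 24 named genes, the 12 largest called rises and 12 largest called falls in the fat body with each product name taken once. Values are the fat body step minus the ovary step on the log2(FPKM + 1) scale. Among the genes that rose in the fat body the difference was 2.12 for homocysteine S-methyltransferase 1, 2.10 for lysozyme MSTRG.5389, 2.06 for inositol oxygenase, 1.95 for trypsin MSTRG.5194 and 1.94 for peroxiredoxin-6-like MSTRG.8360. It was 1.8 for 4-hydroxyphenylpyruvate dioxygenase, 1.63 for tyrosine aminotransferase and 1.57 for the fatty acid elongation protein MSTRG.9793. Among the genes that fell it was -5.52 for cecropin-1-like MSTRG.10389, -4.77 for glycine-rich cell wall structural protein MSTRG.2134, -4.45 for apolipoprotein D-like MSTRG.8970, -4.36 for serine protease easter and -3.75 for glycine-rich cell wall structural protein 1-like MSTRG.4818. It was -3.68 for cuticle protein 7, -3.29 for probable chitinase 3, -3.24 for pupal cuticle protein Edg-78E-like MSTRG.6707 and -3.12 for UDP-glucuronosyltransferase 2B33. These 24 genes were chosen for their change in the fat body, which is part of the difference tested. With 2 libraries per group, no library was tested for standing apart from its group.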

How the results depend on the processing

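Of 731 genes called in the fat body over all genes tested, other settings gave 280 with the 8 fat body libraries in the fit, 1 with only the groups compared and 435 with the 2-fold threshold added; leaving out 1 library gave 400 to 620, where a lone library is assumed to vary like the other groups. The tissue difference, 562 genes, gave 311 with only the groups compared and 240 to 434 with 1 library left out. A limit of 5 times in place of 10 kept 1132 genes apart. Vitellogenin-2-like MSTRG.3414 turned to -0.32 with quantile normalization, which gives each rank the same value in every library. By mean FPKM this gene was at rank 2 at day 9 and at rank 3 at day 13. Vasa MSTRG.707 turned to 0.58 with the ovarian share subtracted, a setting in which negative values were not allowed. Neither turn was tested further. Of 90 called genes named under the rule or after their values were seen, 1 kept its call with only the groups compared. Replicate numbers were not taken as pairing samples: deviations of same-numbered libraries correlated at 0.15 (fat body days 9 and 13), 0.01 (ovary), 0.05 and 0.04 (the tissues at day 9 and day 13). The replicate block gave 670 calls in the fat body and 432 in the tissue difference. Read depth is unknown, so precision at low levels could not be set.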

Other observations

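The genes that fell after day 9 were of more than one age pattern. Of the 453 fallen genes not kept apart, 224 had their highest mean of the 4 ages at day 9, as the cecropins, serine protease easter and UDP-glucuronosyltransferase 2B33 did, and 78 fell at every step from day 1, as cuticle protein 7 and adult cuticle protein 1 did. Among all 7883 genes these numbers were 1297 and 1229. Of the 176 risen genes, 140 had their highest mean at day 13 and 18 rose at every step, beside 1344 and 359 of all 7883 genes. Day 9 was the lowest of the 4 ages for 84 of the risen genes and 1839 of all, with peroxiredoxin-6-like MSTRG.2292 and tyrosine aminotransferase among the risen ones. Since the calls themselves use days 9 and 13, these counts are a description.

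The 2 libraries of day 13 differed in both directions for the fallen genes. Replicate 1 was more than 2 times replicate 2 for 71 of the 453 genes, adult cuticle protein 1 among them, and replicate 2 was more than 2 times replicate 1 for 51, the 3 cecropins among them. In the day 9 libraries the numbers were 13 and 16. Among all 7883 genes they were 479 and 543 at day 13, and 651 and 429 at day 9.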
